A study of Mus musculus with 2 samples.

Results

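Transcripts of 10 genes of the TSC, AMPK and mTOR kinase axis were examined in single-cell RNA sequencing data of mouse haematopoietic stem and progenitor cells. The 10 genes were a fixed list of symbols (Tsc1, Tsc2, Rheb, Ddit4, Mtor, Rptor, Rictor, Stk11, Prkaa1 and Gsk3b), each matched by its symbol in the gene table of both libraries. All 10 were among the 27998 genes of both matrices, and all 10 reached 5 CPM (UMIs of a gene per 1000000 UMIs, where a UMI, or unique molecular identifier, stands for 1 captured molecule) in at least 1 library. The cells were Lin- Sca-1+ c-Kit+ (LSK) cells sorted from the bone marrow of 3-month-old mice, the fraction that holds stem cells and multipotent progenitors.

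There was 1 library per genotype. The Trmt6 WT library came, by its label, from Trmt6fl/fl mice, and the Trmt6 cKO library from Trmt6fl/fl, MX1-cre mice, in which the interferon-inducible Mx1-Cre recombinase removes Trmt6 after injection of pIpC. The study, unlike the labels, describes Mx1-Cre and pIpC for both genotypes, so whether the WT cells carried the recombinase was not settled here. Trmt6 encodes the non-catalytic subunit of the methyltransferase that places the m1A mark on tRNA. The number of mice behind each library is not given in the sources used here. Genotype and library cannot be told apart, no test between genotypes was possible, and every interval below is a 95% interval that covers counting error only.

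mTORC1 is the kinase complex that couples growth factors, amino acids and energy to protein synthesis, and in haematopoietic stem cells its restraint is known to go with quiescence. The complex of TSC1 and TSC2 switches off the small GTPase RHEB, the direct activator of mTORC1. LKB1 (encoded by Stk11), AMPK (Prkaa1), GSK3B and REDD1 (Ddit4) act upstream on TSC, while RAPTOR (Rptor) and RICTOR (Rictor) are the defining subunits of the mTOR complexes mTORC1 and mTORC2.

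After filtering, 8147 WT cells with a median of 4180 UMIs and 8476 cKO cells with a median of 10074 UMIs were kept. The libraries shared 24 cell barcodes, and without them no count of members higher or lower changed. Trmt6 itself was listed at 63.6 CPM in WT against 50.2 CPM in cKO, with a log2 ratio of -0.34 (-0.41 to -0.27), so the label was met only in part at the level of these 3′ counts, which need not cover the deleted part. Kit, which encodes the c-Kit of the sort, was at 63.6 CPM in WT against 21.7 CPM in cKO, and Ly6a, which encodes Sca-1, at 35.4 and 144 CPM. The part of these differences in depth and sort markers in the results below was not tested.

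Cells were assigned to lineages by marker genes counted in cells thinned to 2000 UMIs. The gates were for haematopoietic stem cells (HSC), lymphoid-primed multipotent progenitors (LMPP), granulocyte-monocyte progenitors (GMP), megakaryocytes and 6 further lineages. HSC-gated cells were 7.41% of WT and 11.2% of cKO cells, LMPP-gated cells 10.6% and 1.86%, GMP-gated cells 14.4% and 0.873%, and megakaryocyte-gated cells 3.42% and 0.838%. Those 4 gates had at least 50 cells in both libraries, and in each of them 3 to 6 of the 10 leading genes were markers of the gate, with at most 1 marker of any other gate. The exceptions lay in cKO, where Ebf1 (B) stood among the leading genes of the LMPP gate, Lcn2 (neutrophil) and Mcpt8 (mast/basophil) among those of the GMP gate and Fcer1a (mast/basophil) among those of the megakaryocyte gate. Another 57.7% of WT and 81.7% of cKO cells met no gate. The other 6 gates, erythroid, T/NK, B, monocyte/DC, mast/basophil and neutrophil, held under 50 cells in at least 1 library and were not compared, with 47 neutrophil-gated cells in WT and 0 in cKO, which allows a cKO share of up to 0.0435% (exact binomial bound).

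Of the sequences behind these genes, 3 are shown here. The first is a coding stretch of Tsc1, shown because GCA is 1 of the alanine codons that the study exchanged in a Tsc1 construct. GCA codons are in capitals in the stretch of 30 codons that held the most of them, codons 957 to 986 in exon 22 of 23, on the plus strand at chr2:28686049-28686138 (GRCm38, GENCODE M21).
Tsc1 coding stretch: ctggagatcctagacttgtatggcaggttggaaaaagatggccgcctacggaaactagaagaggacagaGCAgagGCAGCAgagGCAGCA

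The stretch held 5 of the 19 GCA codons of Tsc1. Over the whole coding sequence of 1161 codons, Tsc1 had 16.4 GCA codons per 1000, at percentile 57.5 of 21523 mouse coding sequences, whose median was 15.0 per 1000. Among the 10 members, Gsk3b had the highest GCA use, 27.7 per 1000 (percentile 91.8), and Stk11 had 0 GCA codons in 436. All 4 alanine codons together made up 56.0 per 1000 codons in Tsc1, below the median of 65.6. These are features of the reference, and translation was not measured in these libraries.

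The other 2 sequences come from in front of the RefSeq start sites of Ddit4 and Rheb (GRCm38.p6, both on the minus strand), the member with the largest ratio and the most abundant member. Capitals mark ACGTG, the core bound by hypoxia-inducible factors, in the 186 bases before the GENCODE gene of Ddit4 at chr10:59951835-59952020, and CACGTG, the E-box bound by MYC and USF factors, in 30 bases of Rheb at chr5:24842440-24842469. In Rheb the first letter of the motif lay 96 bases before the RefSeq start, which is downstream of the GENCODE start, so this stretch is inside the GENCODE gene.
Ddit4 upstream: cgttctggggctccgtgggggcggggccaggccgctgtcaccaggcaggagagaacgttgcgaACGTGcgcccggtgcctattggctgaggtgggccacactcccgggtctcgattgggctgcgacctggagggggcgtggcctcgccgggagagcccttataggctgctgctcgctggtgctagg
Rheb, before the RefSeq start: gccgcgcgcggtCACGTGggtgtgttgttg

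The 250 bases before the start were searched on both strands for 3 motifs in all 10 members. CACGTG, which contains ACGTG, was found in Rheb alone, and 6.02% of 32851 promoters held it. ACGTG was found in Rheb, Ddit4, Rptor and Stk11, against 16.6% of promoters. TGATGNAA, the composite element of C/EBP and ATF factors such as ATF4, was found in 0 of the 10 and in 3.45% of promoters. A match or its absence in this window says only which letters are there.

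Over all kept cells, 3 members were higher and 5 were lower in cKO beyond counting error, where 33.5% of 9158 genes at 5 CPM or more were higher and 45.5% were lower. Past a log2 ratio of 0.5, the limit of size used here, 1 member (Ddit4) was higher and 2 (Tsc1 and Rictor) were lower, against 9.13% and 17.7% of genes. Tsc1 met the 5 CPM minimum through WT alone (6.47 CPM in WT and 4.22 CPM in cKO). The median log2 ratio of the 10 members was -0.11, beside -0.06 over all those genes. The direction of members thus differed within the pathway, and their counts were close to what all genes showed, except that Ddit4 stood at percentile 98.8 of all genes.

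**Figure D1:**
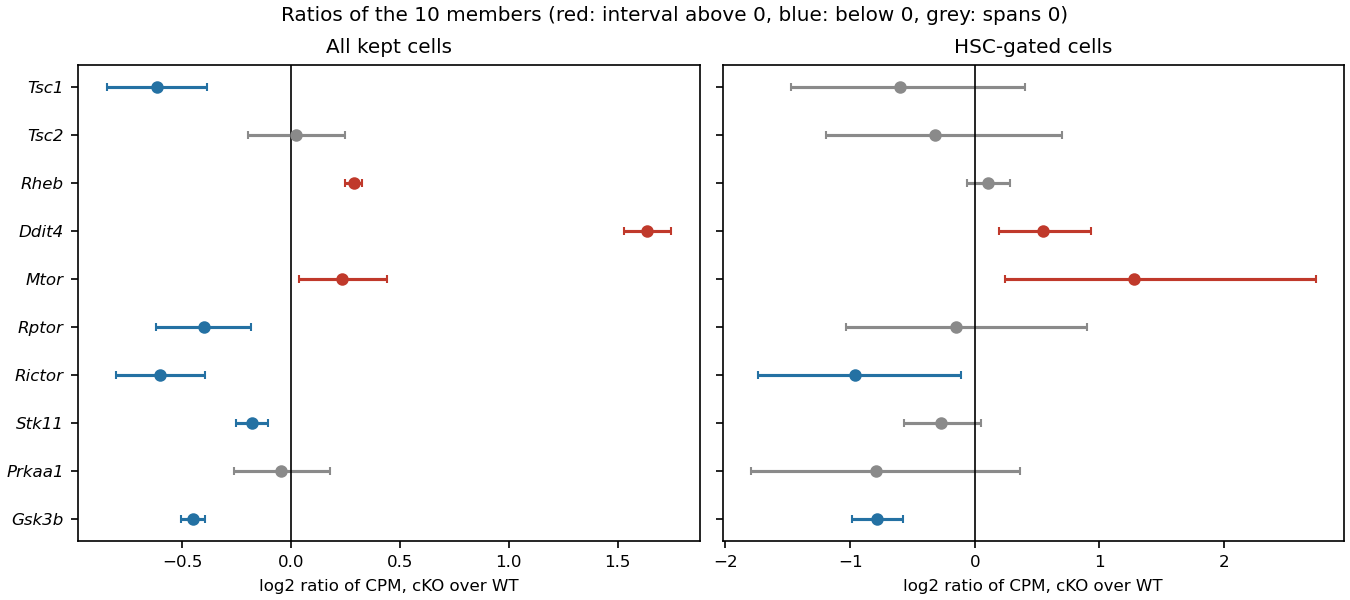
Log2 ratios of CPM, cKO over WT, of the 10 members over all kept cells (left) and in HSC-gated cells (right), with 95% counting intervals. Ddit4 lay at 1.64 over all cells and 0.55 in HSC-gated cells, and Gsk3b lay below 0 in both panels.

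The members of the TSC complex were scarce. Tsc1 (chr2:28641228-28691167, plus strand), which encodes hamartin, had 273 UMIs or 6.47 CPM in WT (5.73 to 7.29) against 369 UMIs or 4.22 CPM in cKO (3.80 to 4.67), with a log2 ratio of -0.62 (-0.85 to -0.39). Tsc2 (chr17:24595816-24632630, minus strand), which encodes the GTPase-activating subunit tuberin, had 5.78 CPM in WT against 5.88 CPM in cKO, with a log2 ratio of 0.02 (-0.20 to 0.25). Tsc2 overlaps Pkd1 on the other strand, and the 3′ protocol keeps the strand. By gate, Tsc2 was higher in cKO GMP-gated cells alone (5.36 and 11.3 CPM from 60 and 14 UMIs, 1.12, 0.12 to 1.93). Over all cells the transcript of the scaffold subunit was thus lower in cKO, while the interval of that of the catalytic partner spanned 0. Without the 1% of cells with the most UMIs of Tsc2, its interval lay above 0 (0.34, 0.07 to 0.63).

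The difference in Tsc1 was found in cells without a lineage gate, at 7.81 CPM in WT against 4.06 CPM in cKO (log2 ratio -0.95, -1.22 to -0.66). In HSC-gated cells there were 15 UMIs of Tsc1 in WT (7.18 CPM) and 37 in cKO (4.83 CPM), where the ratio of -0.60 (-1.47 to 0.40) spanned 0. With markers counted on all UMIs, which gated 850 WT and 3922 cKO cells as HSC, it was -1.14 (-1.70 to -0.48). In LMPP-gated cells the order was the other way, 4.97 CPM in WT against 9.75 CPM in cKO from 19 and 14 UMIs (0.98, -0.14 to 2.04), and in LMPP-gated cells called G1 the interval was above 0 on 5 and 7 UMIs (3.08 and 17.3 CPM, 2.45, 0.62 to 4.49). By cell cycle phase, Tsc1 was lower in G1 (8.56 and 4.35 CPM, log2 ratio -0.98, -1.37 to -0.58) and in G2/M (6.11 and 4.30 CPM, -0.51, -0.93 to -0.09), and its ratio spanned 0 in S (5.12 and 4.07 CPM). Within WT, Tsc1 was higher in G1 than in S, by 0.74 on the log2 scale (0.30 to 1.19), while in cKO the 3 phases lay between 4.07 and 4.35 CPM.

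Rheb (chr5:24802823-24842624, minus strand) was the most abundant member in CPM, which are not scaled by length here because 3′ UMIs count molecules. It was at 166 CPM in WT (162 to 170) against 202 CPM in cKO (199 to 205), with a log2 ratio of 0.29 (0.25 to 0.33). The ratio was 0.18 (0.11 to 0.26) in thinned cells and 0.39 (0.35 to 0.43) with median-of-ratios size factors, another scaling. WT levels were nearly level over the gates, 163 CPM in HSC-, 165 in LMPP-, 167 in GMP- and 166 in megakaryocyte-gated cells, and the intervals of those 4 values overlapped. In cKO the same gates held 175, 200, 198 and 195 CPM. Rheb was higher in cKO beyond counting error in the LMPP gate (0.28, 0.07 to 0.48) and the GMP gate (0.24, 0.04 to 0.43), and its ratio spanned 0 in the HSC gate (0.11, -0.07 to 0.28) and the megakaryocyte gate (0.23, -0.08 to 0.53). It was higher in cKO in all 3 phases, from 0.19 in G1 to 0.33 in G2/M, and in both libraries it was higher in S than in G1 (179 and 158 CPM in WT, 219 and 179 CPM in cKO).

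Rheb was also the sole member with at least 50 UMIs in each of 8 strata of gate and phase in both libraries. Over those 16 points, centred within each library, the genes of 4650 whose log2 CPM was most like it were Orc2 (a subunit of the origin recognition complex, Pearson r = 0.76), Ipo7 (a nuclear import receptor, 0.75) and Carnmt1 (carnosine N-methyltransferase, 0.72). The points share 2 libraries and the phase calls, so the r values are descriptions.

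Ddit4 (chr10:59949669-59951834, minus strand) encodes REDD1, which restrains mTORC1 through TSC and is induced by stress and glucocorticoids. It had 796 UMIs or 18.9 CPM in WT (17.6 to 20.2) and 5129 UMIs or 58.7 CPM in cKO (57.1 to 60.3), 3.11 times as high (log2 ratio 1.64, 1.53 to 1.75). It was higher in cKO beyond counting error in all 4 gates and all 3 phases. GMP-gated cells, of the 4 compared gates the lowest in WT Ddit4, were more frequent in WT, and with the same mix of gates and phases in both libraries the ratio was 1.37.

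The size of the Ddit4 difference varied with lineage. In HSC-gated cells Ddit4 was at 34.9 CPM in WT (27.4 to 43.9) against 51.3 CPM in cKO (46.4 to 56.7), with a log2 ratio of 0.55 (0.19 to 0.94). LMPP-gated cells held 29.3 and 78.7 CPM (1.42, 1.03 to 1.81). Megakaryocyte-gated cells held 19.0 and 49.7 CPM (1.38, 0.63 to 2.17), and GMP-gated cells 7.14 and 28.2 CPM (1.995, 1.37 to 2.57). In WT the order of the gates was HSC, LMPP, megakaryocyte and GMP, in which neither HSC and LMPP (log2 ratio 0.26, -0.19 to 0.69) nor LMPP and megakaryocyte (0.60, -0.01 to 1.31) differed beyond counting error. In cKO, LMPP-gated cells came first, HSC- and megakaryocyte-gated cells did not differ beyond counting error (0.03, -0.43 to 0.56) and GMP-gated cells were again lowest. The HSC-gated ratio was below that of each of the other 3 gates, by 0.83 to 1.45 on the log2 scale, with intervals that left out 0.

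**Figure D2:**
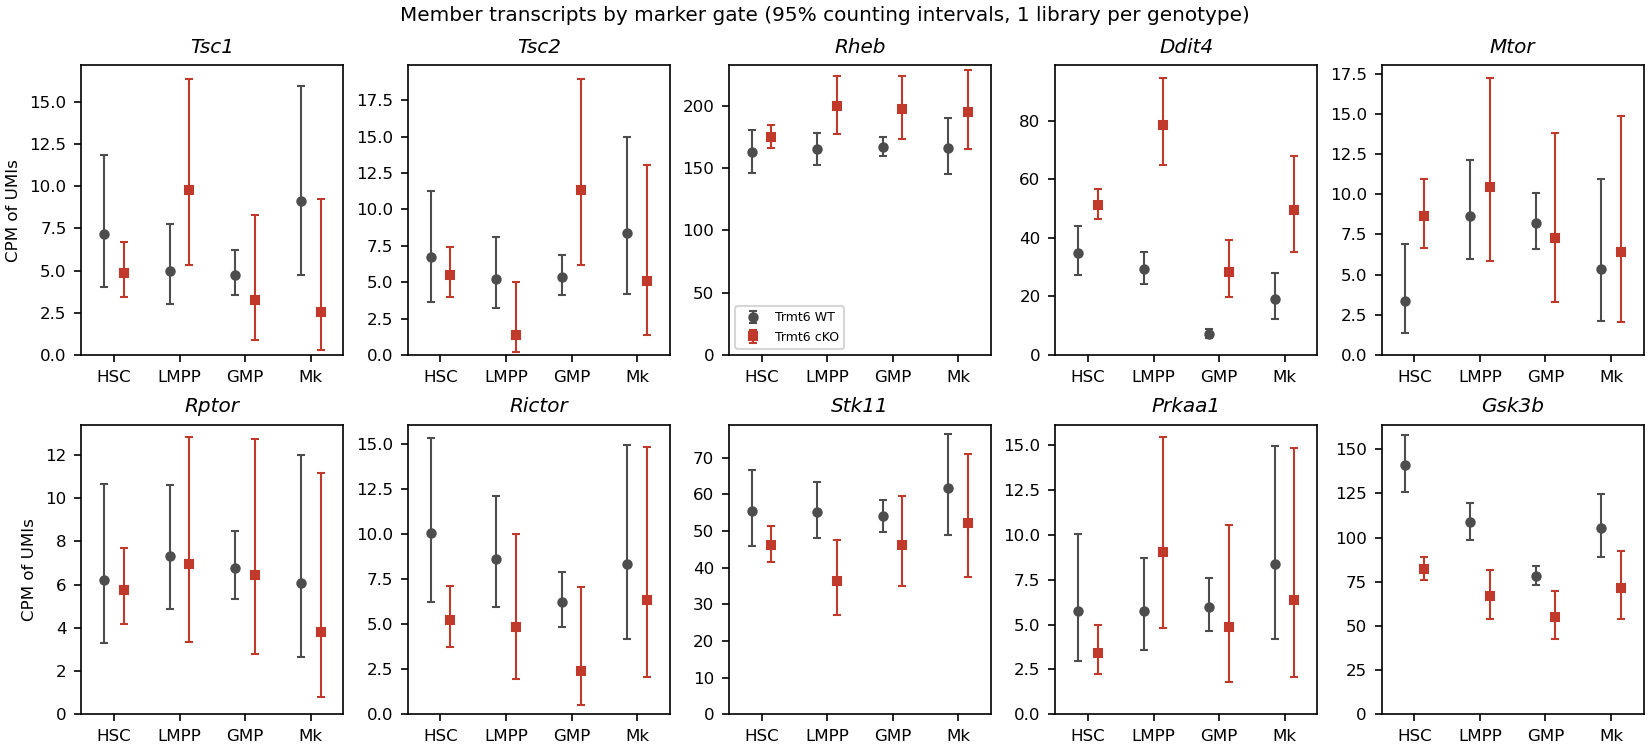
CPM of the 10 members in HSC-, LMPP-, GMP- and megakaryocyte-gated (Mk) cells of the WT (circles) and cKO (squares) libraries, each axis from 0, with 95% counting intervals. Ddit4 was higher and Gsk3b lower in cKO in each gate, while members below about 10 CPM had wide intervals.

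Ddit4 also varied with the cell cycle, and more so in WT. WT levels fell from 34.3 CPM in G1 to 14.7 CPM in S and 9.79 CPM in G2/M, a G1 to G2/M difference of 1.81 on the log2 scale (1.54 to 2.09). In cKO the same phases held 73.1, 53.9 and 49.3 CPM, a difference of 0.57 (0.46 to 0.68). The cKO over WT ratio was therefore 1.09 in G1, 1.87 in S and 2.33 in G2/M. Within HSC-gated cells the ratio was 0.63 in G1 (42.4 and 66.1 CPM, 0.21 to 1.09), and in S (0.72, -0.15 to 1.89) and G2/M (0.81, -0.23 to 2.27) estimates of similar size spanned 0, from 10 and 7 WT UMIs. Phases were called on thinned cells, and 44.6% of WT and 37.3% of cKO cells were called G1.

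**Figure D3:**
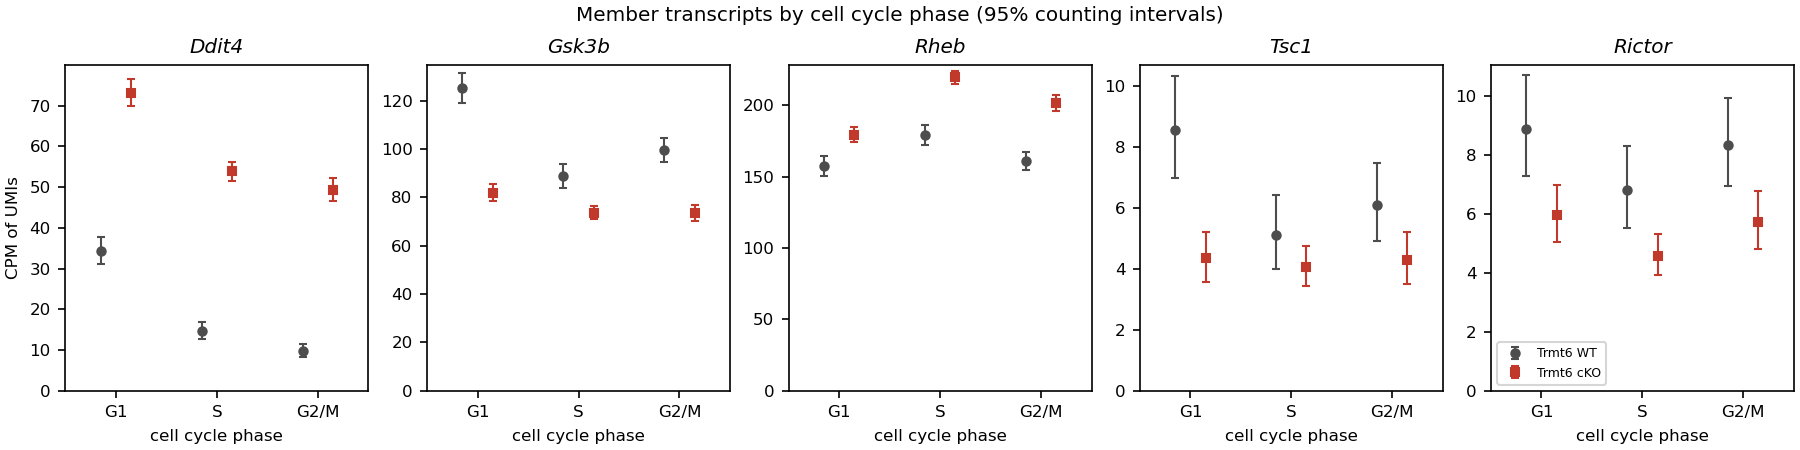
CPM of Ddit4, Gsk3b, Rheb, Tsc1 and Rictor in cells called G1, S and G2/M in the WT (circles) and cKO (squares) libraries, each axis from 0, with 95% counting intervals. Ddit4 fell from 34.3 to 9.79 CPM between G1 and G2/M in WT and from 73.1 to 49.3 CPM in cKO.

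Since Ddit4 is a target of several stress programmes, its level was compared between cells grouped by their UMIs of 5 lists of 5 genes each, counted at 2000 UMIs per cell. The ATF4 targets (Trib3, Asns, Chac1, Atf5 and Ddit3) summed to 39.6 CPM in WT against 561 CPM in cKO. Within cKO, Ddit4 was at 45.9 CPM in cells with 0 of their UMIs (43.7 to 48.3), 61.1 CPM with 1 and 71.5 CPM with 2 or more (68.3 to 74.8). Within WT the same classes held 18.7, 18.5 and 22.8 CPM, and the ratio of the last to the first spanned 0 (0.46, -1.59 to 1.65). In the cells with 0 ATF4 target UMIs, which at this depth need not lack the programme, Ddit4 was at 18.7 CPM in WT (cKO over WT 1.29, 1.17 to 1.42).

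The p53 response (Cdkn1a, Mdm2, Ccng1, Phlda3 and Trp53inp1) summed to 154 CPM in WT against 249 CPM in cKO, and of the 5 lists it gave the largest Ddit4 ratio within cKO. Ddit4 rose from 47.6 CPM in cKO cells with 0 UMIs of this list to 105 CPM with 2 or more (log2 ratio 1.14, 1.04 to 1.25), and in WT from 17.9 to 26.8 CPM (0.59, 0.15 to 0.99). The glucocorticoid list (Tsc22d3, Per1, Fkbp5, Zbtb16 and Cdkn1c) gave the largest ratio within WT, with 17.2 CPM at 0 UMIs and 32.4 CPM at 2 or more (0.92, 0.54 to 1.26), beside 56.5 and 70.7 CPM in cKO (0.32, 0.18 to 0.47). For the hypoxia list (Bnip3, Vegfa, Ankrd37, Pdk1 and Egln3), with 101 CPM in WT against 103 CPM in cKO, the ratio spanned 0 in both libraries.

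The immediate early list (Fos, Jun, Junb, Egr1 and Ier2), whose genes respond to stimulation and to handling of cells, was lower in cKO, with 3504 CPM in WT against 774 CPM in cKO. Ddit4 was higher in cells with 2 or more of its UMIs than in cells with 0, by 0.84 (0.39 to 1.36) in WT and 0.29 (0.19 to 0.39) in cKO. In each class of each of the 5 lists Ddit4 was higher in cKO, with log2 ratios from 1.12 to 2.59. Classes of cells can also differ in lineage, phase and depth, and the part of those was not tested.

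**Figure D4:**
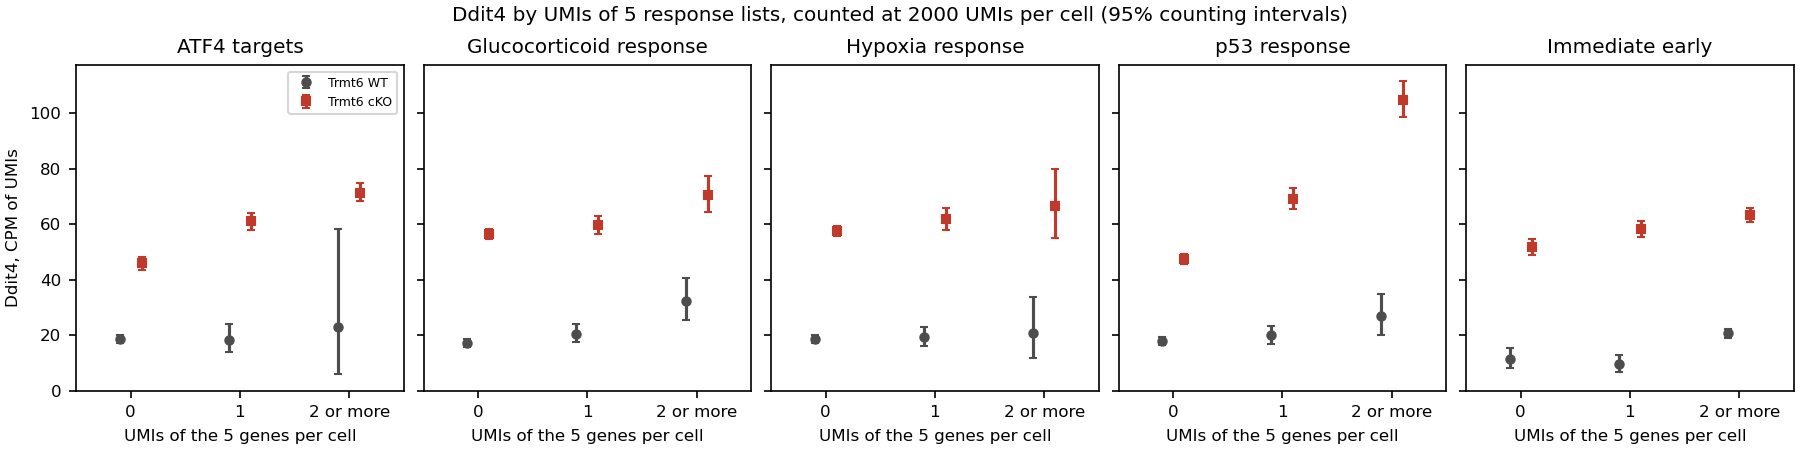
Ddit4 CPM in cells with 0, 1 and 2 or more UMIs of 5 response lists, counted in cells thinned to 2000 UMIs, in the WT (circles) and cKO (squares) libraries with 95% counting intervals. The steepest rise in cKO was over the p53 list, from 47.6 to 105 CPM, and in every class the cKO value was above the WT value.

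Gsk3b (chr16:38089001-38246084, plus strand) encodes a kinase that phosphorylates TSC2 after priming by AMPK. It was at 104 CPM in WT (101 to 107) against 76.2 CPM in cKO (74.4 to 78.0), with a log2 ratio of -0.45 (-0.51 to -0.39). It was lower in cKO in 4 of 4 gates, in 3 of 3 phases and in 7 of 8 strata of gate and phase, the exception being HSC-gated cells in S (101 and 75.3 CPM, -0.43, -0.91 to 0.11). In HSC-gated cells the levels were 141 CPM in WT (126 to 158) against 82.2 CPM in cKO (75.9 to 88.8), with a log2 ratio of -0.78 (-0.98 to -0.58).

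Among the 4 compared gates in WT, Gsk3b was highest in HSC-gated cells and lowest in GMP-gated cells, at 78.3 CPM, with 109 CPM in LMPP- and 106 CPM in megakaryocyte-gated cells, which did not differ from each other beyond counting error. In cKO the same gates ranged from 54.9 CPM in GMP- to 82.2 CPM in HSC-gated cells. WT cells in G1 held 125 CPM, above S (88.6 CPM) and G2/M (99.5 CPM), and cKO cells held 81.9, 73.6 and 73.5 CPM. The ratio was thus largest in G1 (-0.61, -0.71 to -0.52) and smallest in S (-0.27, -0.36 to -0.17), and the difference of these ratios was -0.34 (-0.48 to -0.21).

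Of the energy-sensing kinases, Stk11 (chr10:80115803-80130682, plus strand), which encodes the AMPK kinase LKB1, was at 54.1 CPM in WT against 47.8 CPM in cKO, with a log2 ratio of -0.18 (-0.25 to -0.11). With another scaling, by median-of-ratios size factors, Stk11 was at -0.08 (-0.15 to -0.01), and in thinned cells its interval spanned 0. Its WT levels lay between 53.9 and 61.6 CPM over the 4 gates with overlapping intervals. It was lower in cKO beyond counting error in the LMPP gate (55.2 and 36.2 CPM, -0.60, -1.08 to -0.17), and in HSC-gated cells the ratio spanned 0 (55.5 and 46.2 CPM, -0.27, -0.57 to 0.05). Split by phase, HSC-gated cells had lower Stk11 in cKO in S (73.6 and 45.5 CPM, -0.71, -1.29 to -0.06) and in G2/M (82.9 and 51.1 CPM, -0.71, -1.31 to -0.05), and in G1 the ratio spanned 0 (42.4 and 44.2 CPM, 0.05, -0.39 to 0.53). Over all cells Stk11 was lower in G1 (-0.18) and G2/M (-0.21). Prkaa1 (chr15:5143861-5181899, plus strand), which encodes the AMPK catalytic subunit alpha 1, was at 5.97 CPM in WT against 5.80 CPM in cKO (-0.04, -0.26 to 0.18), with ratios that spanned 0 in every gate and phase.

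Mtor (chr4:148448611-148557683, plus strand), the kinase itself, was at 6.87 CPM in WT (6.11 to 7.71) against 8.10 CPM in cKO (7.51 to 8.72), with a log2 ratio of 0.24 (0.04 to 0.44). The mTORC1 subunit gene Rptor (chr11:119602905-119899576, plus strand) was lower in cKO, 6.78 against 5.14 CPM (-0.40, -0.62 to -0.18). The mTORC2 subunit gene Rictor (chr15:6708379-6800401, plus strand) was at 8.06 CPM in WT against 5.32 CPM in cKO (-0.60, -0.80 to -0.39). The interval of Mtor spanned 0 in thinned cells (0.27, -0.11 to 0.66) and in G1 cells (0.14, -0.23 to 0.54), and that of Rptor without the 1% of cells with the most of its UMIs (-0.22, -0.47 to 0.05). Rictor was lower in 3 of 3 phases (-0.58 in G1, -0.57 in S and -0.54 in G2/M), and Rptor in G1 (7.51 and 4.51 CPM) and G2/M (6.51 and 4.63 CPM). The interval of Mtor was above 0 in S alone (6.45 and 8.47 CPM, 0.39, 0.05 to 0.74).

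HSC-gated cells were examined apart because the study followed some of these transcripts, Tsc1 among them, in LT-HSCs. By RT-PCR in LT-HSCs the study reported no difference in the mRNA of Tsc1, Stk11, Prkaa1, Gsk3b, Ddit4 and Rheb. The LT-HSCs of the study and the HSC gate used here are not the same set of cells. There were 604 HSC-gated cells in WT and 953 in cKO. In them Ddit4 and Mtor were higher and Rictor and Gsk3b were lower beyond counting error, and the intervals of the other 6 members spanned 0. Over 9536 genes at 5 CPM or more in these cells, 15.1% were higher and 25.6% were lower. Past a log2 ratio of 0.5 there were 2 members higher and 4 lower, against 10.4% and 25.8% of genes, and the median of the members was -0.30 beside -0.13 over all genes. Among these members Mtor met the minimum of 5 CPM through cKO alone. Tsc1 (7.18 CPM in WT and 4.83 CPM in cKO) and Prkaa1 (5.74 and 3.40 CPM) met it through WT alone. Mtor rested on 7 WT and 66 cKO UMIs, 3.35 and 8.62 CPM (1.27, 0.24 to 2.73), and Rictor on 21 and 40 UMIs, 10.1 and 5.22 CPM (-0.96, -1.74 to -0.11).

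In HSC-gated cells the intervals of Mtor and Rictor each left out 0 in 6 of 10 alternatives, that of Ddit4 in 8 and that of Gsk3b in 10, while the estimates of these 4 members kept their sign in all 10 (Mtor 0.61 to 2.89, Rictor -1.18 to -0.51, Ddit4 0.31 to 0.74). With the median-of-ratios scaling, which raised every log2 ratio in these cells by 0.16, Rictor spanned 0 (-0.80) and Rheb was higher (0.27). With another random thinning Mtor was at 0.64 and spanned 0. Within WT, Mtor was lower in HSC- than in LMPP-gated cells (8.64 CPM, log2 ratio -1.29, -2.79 to -0.17) and than in GMP-gated cells (8.21 CPM, -1.20, -2.65 to -0.19), while in cKO the 4 gates lay between 6.37 and 10.4 CPM.

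A further list of 53 genes of the pathway was examined, and 43 of them reached the minimum of 5 CPM. Past a log2 ratio of 0.5, 4 were higher and 8 were lower in cKO, shares of the 43 near the 9.13% and 17.7% of all genes, and the median was -0.03. In HSC-gated cells 4 of 43 were higher and 10 were lower, where 10.4% and 25.8% of all genes were. Of 9 genes of the PI3K-AKT input at the minimum, 0 were higher and 2 were lower, Pik3cg (21.3 and 12.3 CPM, -0.79), which encodes a catalytic subunit of PI3K, and Inpp5d (30.9 and 19.6 CPM, -0.66), which encodes the lipid phosphatase SHIP. Akt1 was at 98.2 and 112 CPM (0.19, 0.13 to 0.24).

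Of 11 genes of AMPK and its partners at the minimum, 1 was higher and 1 lower, where 9.13% and 17.7% of all genes were. Sesn2, which encodes the stress-induced leucine sensor Sestrin 2, was at 2.18 CPM in WT against 24.3 CPM in cKO (3.47, 3.17 to 3.79), and in HSC-gated cells at 12 and 137 UMIs (1.59, 0.79 to 2.63). Its relative Sesn3 was lower (13.7 and 9.44 CPM, -0.53, -0.69 to -0.38). The AMPK subunit genes Prkab1 (27.3 and 31.3 CPM, 0.20), Prkag1 (56.6 and 55.5 CPM, -0.03) and Prkag2 (15.1 and 18.8 CPM, 0.32) were within the limit. Among 3 genes listed with TSC, Rheb and Gsk3, Tbc1d7, the third subunit of the TSC complex, was higher (11.8 and 17.3 CPM, 0.56, 0.41 to 0.71), while in HSC-gated cells its ratio spanned 0 (0.18, -0.40 to 0.85).

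Of 8 other subunits of the mTOR complexes at the minimum, 0 were higher and 2 were lower, where 9.13% and 17.7% of all genes were. The 2 lower were Deptor, which encodes an inhibitory subunit (7.97 and 4.43 CPM, -0.85, -1.06 to -0.63), and Prr5, which encodes the mTORC2 subunit Protor (17.2 and 8.57 CPM, -1.01, -1.16 to -0.86). Deptor met the minimum through WT alone. In HSC-gated cells Prr5 had a ratio of -0.59 that spanned 0 (-1.32 to 0.24). Mapkap1, which encodes the mTORC2 subunit SIN1 and is named here after its values were seen, was at 36.4 and 37.8 CPM over all cells (0.05, -0.03 to 0.14).

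Of 12 output genes at the minimum, 2 were higher and 3 were lower, where 9.13% and 17.7% of all genes were. Grb10 met the minimum through cKO alone and Lpin1 through WT alone, as Sesn2 did through cKO and Deptor through WT. Eif4ebp1, which encodes the translation repressor phosphorylated by mTORC1, was at 150 CPM in WT against 495 CPM in cKO (1.73, 1.69 to 1.76). Grb10, an adaptor of receptor tyrosine kinases, rose from 3.06 to 34.6 CPM (3.49, 3.24 to 3.76). Lower were Pdcd4 (454 and 108 CPM, -2.07, -2.11 to -2.04), an inhibitor of the helicase eIF4A, Lpin1 (6.42 and 2.89 CPM, -1.15), a regulator of lipid synthesis, and Ulk1 (8.34 and 5.16 CPM, -0.69), the kinase that starts autophagy. These 5 genes lay on the same side in HSC-gated cells, with ratios of 1.24, 2.22, -1.72, -1.64 and -1.20 in the order named. Transcript levels do not give the phosphorylation state of any of these proteins.

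**Figure D5:**
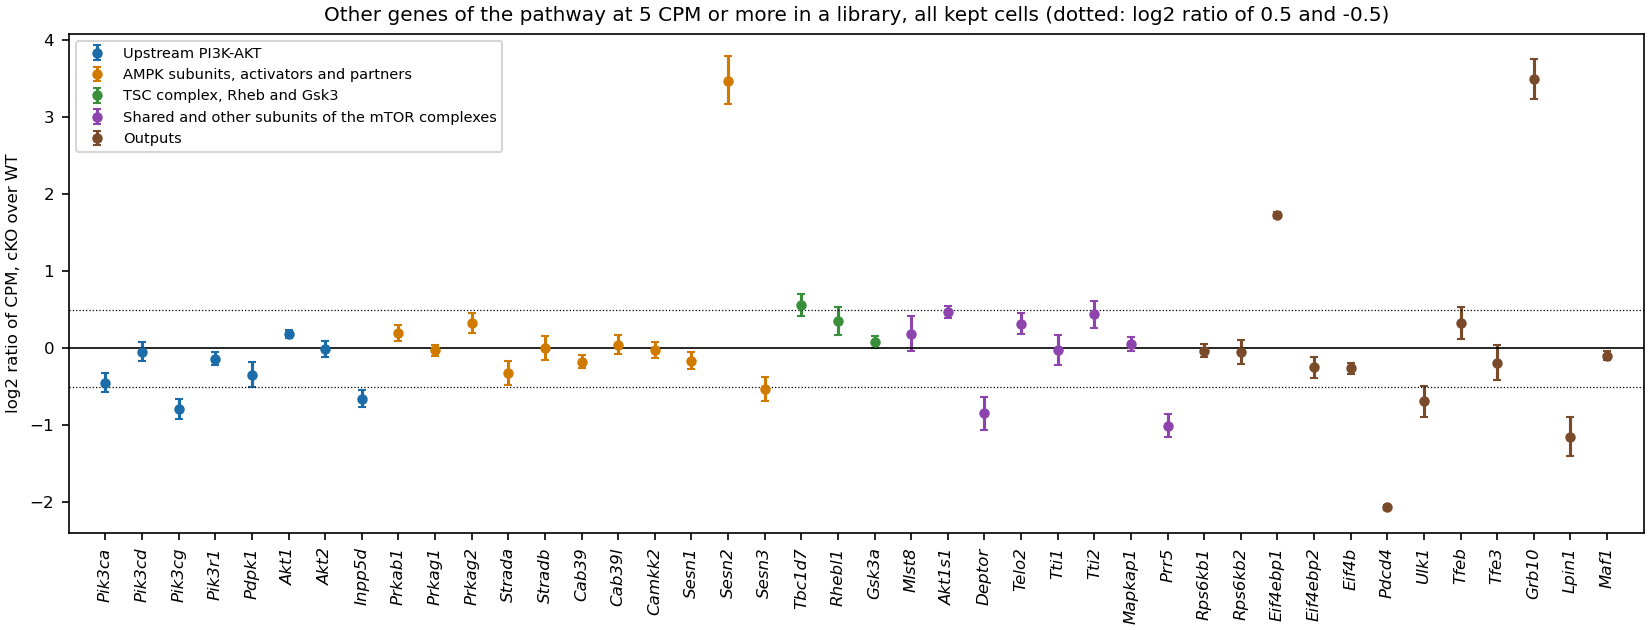
Log2 ratios of CPM, cKO over WT, of other pathway genes that met the minimum of 5 CPM, coloured by list, with 95% counting intervals and dotted lines at 0.5 and -0.5. Grb10 and Sesn2 lay above 3, Eif4ebp1 at 1.73 and Pdcd4 at -2.07, while most other genes lay between the dotted lines.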

How the data were processed

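Single-cell RNA was measured in 1 library of LSK cells per genotype, grouped by genotype label. The authors deposited raw UMI counts for each gene and barcode, made with Cell Ranger 6.0.0 on GRCm38 (mm10). Chemistry is given as v2 by the labels and v3 by the study's methods. Here, barcodes with over 200 genes, under 4000 (WT) or 4500 (cKO) genes, under 10% (WT) or 5% (cKO) mitochondrial and under 5% hemoglobin UMIs were kept. The highest doublet scores, the share of simulated doublets among 50 neighbours, were removed at 0.8% per 1000 barcodes (616 WT and 675 cKO cells). Levels are CPM of summed UMIs with exact Poisson intervals. Each log2 ratio (cKO over WT) adds 0.5 counts per library and has an exact conditional binomial interval (scipy 1.17.1), and differences of log2 ratios have normal intervals. The ratio and its interval were tested on simulated data.

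Gates and phases (the Seurat rule) used cells thinned to 2000 UMIs, leaving out 195 WT and 105 cKO cells. HSC, LMPP, megakaryocyte and erythroid gates needed 2 markers, the others 3, with 10 UMIs for GMP and 100 for neutrophil. Cells that met several gates were left out of all. The HSC markers were Procr, Pdzk1ip1, Mllt3, Mecom, Hlf, Fgd5, Ctnnal1, Slamf1 and Hoxb5. Members, lists and markers were chosen with earlier results of these data known. Named were the members, the pathway genes past the fold and the first others of the list, and genes like a member over strata. Ddit4l, Prr5l, Akt1s1 and Mapkap1 were named after their values were seen. Alternatives were other scalings, cell filters, thinning, gates, weights, mixes and minimum levels. The values of 1 gene of the pathway list are not reported here.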

Additional observations from a re-analysis of the deposited data

Results flagged for a closer look

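The log2 ratio of a member, cKO over WT, was compared between the 4 gates and between the 3 phases, and in 18 of 90 differences the interval left out 0. The share over all genes was not computed, so this count cannot be read as particular to the members. These intervals are normal approximations that cover counting error only and were not adjusted for their number, and no test over samples was possible.

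Of the 18 differences, 6 were of Ddit4, the REDD1 gene. Its ratio in HSC-gated cells lay below that in LMPP-gated cells by a difference of -0.88 (-1.40 to -0.36), in GMP-gated cells by -1.45 (-2.12 to -0.78) and in megakaryocyte-gated cells by -0.83 (-1.63 to -0.03). Its ratio in G1 minus that in S was -0.78 (-1.03 to -0.52), in G1 minus G2/M -1.24 (-1.53 to -0.95) and in S minus G2/M -0.46 (-0.78 to -0.14).

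Gsk3b differed between phases, with -0.34 (-0.48 to -0.21) for G1 minus S, -0.17 (-0.31 to -0.04) for G1 minus G2/M and 0.17 (0.03 to 0.31) for S minus G2/M. Rheb gave -0.10 for G1 minus S, with an upper bound that rounds to 0, and -0.14 (-0.24 to -0.04) for G1 minus G2/M. Rptor gave -0.62 (-1.15 to -0.09) for G1 minus S.

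Tsc1 gave -0.64 (-1.19 to -0.09) for G1 minus S, -1.58 (-2.88 to -0.28) for HSC minus LMPP and 2.56 (0.37 to 4.75) for LMPP minus megakaryocyte. Tsc2 gave -1.44 (-2.63 to -0.25) for HSC minus GMP and -2.74 (-4.81 to -0.67) for LMPP minus GMP, and Prkaa1 -1.46 (-2.84 to -0.09) for HSC minus LMPP. The gate values of Tsc1 and Tsc2 include gates with as few as 2 UMIs in cKO.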

How the results depend on the processing

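Over all kept cells the counts of members higher (3) and lower (5) stayed between 2 and 4 and between 4 and 5 in 10 alternatives, the intervals of Tsc1, Rheb, Ddit4, Rictor and Gsk3b stayed on their side of 0 in all 10, and that of Prkaa1 spanned 0 in all 10. The Ddit4 ratio ranged from 1.09 (G1 cells only) to 1.88, with 1.32 in thinned cells. Without the 1% of cells with the most UMIs of the gene, Tsc1 (-0.47) and Rictor (-0.44) came within the log2 limit of 0.5. Stk11 and Mtor spanned 0 in thinned cells, Mtor also in G1 cells alone, and without the 1% of cells with the most UMIs of the gene Rptor spanned 0 and Tsc2 was higher (0.34). In HSC-gated cells no estimate of the 4 called members changed sign, but intervals widened or moved to span 0. Of 2 members higher, 1 had an interval above 0 in cells thinned to 2000 UMIs (Ddit4 0.46 spanned 0), 1 in G1 cells (Mtor 1.25 spanned 0), 1 with another random thinning (Mtor 0.64 spanned 0), and 0 with 1 more marker per gate, which left 128 WT and 261 cKO cells (Ddit4 0.31, Mtor 1.46). Of 2 lower, 1, Gsk3b, had an interval below 0 with median-of-ratios scaling, thinned cells, G1 cells and 1 more marker, where Rictor was at -0.80, -0.87, -0.51 and -1.01. Mtor also spanned 0 with markers counted on all UMIs (0.61), where Tsc1 was lower (-1.14) and Rheb higher (0.32), and Stk11 was lower with another random thinning (-0.45). The cause of these changes was not tested. The median-of-ratios scaling moved all log2 ratios by 0.10 over all cells and 0.16 in HSC-gated cells. Leaving out the shared barcodes was chosen after seeing the data. Pathway counts were 4 to 6 higher and 7 to 10 lower. No paired analysis was possible because each group is 1 library with no replicate number. Members under 10 CPM had too few UMIs in single gates to show differences of moderate size.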

Other observations

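Some pathway genes below 5 CPM in both libraries also differed beyond counting error over all cells. Ddit4l, the paralog of Ddit4 that encodes REDD2, had 2 WT and 140 cKO UMIs (log2 ratio 4.76, counting interval 3.20 to 8.14). Prr5l, a relative of the mTORC2 subunit gene Prr5, was at 0.403 CPM in WT against 2.36 CPM in cKO (2.51, 1.83 to 3.36), opposite to Prr5. Prkaa2, the gene of the other AMPK catalytic subunit, was at 0.427 CPM in WT against 0.869 CPM in cKO (0.997, 0.271 to 1.86). Pik3cb was lower, at 2.70 CPM in WT against 1.22 CPM in cKO (-1.14, -1.54 to -0.75). Akt1s1, which encodes the mTORC1 subunit PRAS40, was above the minimum and just within the limit of size, at 40.0 CPM in WT against 55.3 CPM in cKO (0.47, 0.39 to 0.55).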
